A study of Mus musculus with 56 samples.

Results

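The liver of night-fed mice was compared over the last 4 h of the daily fast, from ZT8 to ZT12, where ZT (zeitgeber time) counts hours from lights on. The members were all 8 liver libraries that carried the night-fed (nighttime-restricted feeding, NRF) label at these times, 4 at ZT8 and 4 at ZT12, of 56 liver libraries in the series. The series sampled liver at 7 times under NRF and under daytime-restricted feeding (DRF), with 4 libraries a group, and the data give RNA levels per gene and circular RNA (circRNA) junction levels. All mice, in both groups used here, were C57BL/6J females of 9 weeks on normal chow, entrained for 7 days with free access to food under a cycle of 12 h light and 12 h dark and then held on restricted feeding for 7 days. Under NRF food was given in the dark, so that both groups were sampled in the light phase without food, ZT12 being the end of both the light and the fast. Each library was labelled as a separate liver sample, and different animals were killed at each time, so that no animal was followed. Time since the last meal, time of day and time in the light advance together between ZT8 and ZT12 and cannot be told apart in this comparison.

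Liver genes follow the circadian clock, in which the activators BMAL1 (gene Arntl) and CLOCK bind E-box sequences and switch on the period and cryptochrome repressors, the nuclear receptors REV-ERB and ROR set the rhythm of Arntl, and PAR bZIP factors such as DBP and TEF act on D-box sequences. Feeding acts on the same organ: during a fast the liver breaks down glycogen, makes glucose and oxidises fat, and when food arrives insulin turns it towards storing glycogen and fat. Corticosterone in nocturnal rodents peaks near the end of the light phase, when feeding is anticipated.

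The promoter sequences below are shown because E-box or D-box letters lie in them. Their genes are among those of the clock, glycogen and drug metabolism results that follow. Each is read from the RefSeq promoter entry (GRCm38.p6) in the direction of the gene, with 20 flanking bases where the entry holds them, and capitals mark the E-box (CACGTG) or the D-box (TTATGNAA, on either strand). The match describes letters only.
Per1, chr11:69098763-69098948, plus strand: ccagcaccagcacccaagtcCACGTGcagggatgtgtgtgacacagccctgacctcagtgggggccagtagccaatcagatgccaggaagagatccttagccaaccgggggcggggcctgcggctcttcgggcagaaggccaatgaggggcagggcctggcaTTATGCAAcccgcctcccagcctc
Per3, chr4:151044796-151044890, minus strand: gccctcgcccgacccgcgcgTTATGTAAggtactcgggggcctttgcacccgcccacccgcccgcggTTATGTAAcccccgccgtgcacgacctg
Cry1, chr10:85185089-85185134, minus strand: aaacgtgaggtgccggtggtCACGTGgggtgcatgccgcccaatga
Ciart, chr3:95882247-95882364, minus strand: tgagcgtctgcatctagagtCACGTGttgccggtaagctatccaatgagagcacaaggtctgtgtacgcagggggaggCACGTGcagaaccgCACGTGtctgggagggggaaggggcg
Bhlhe41, chr6:145865548-145865593, minus strand: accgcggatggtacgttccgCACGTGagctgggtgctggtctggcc
Lonrf3, chrX:36328344-36328389, plus strand: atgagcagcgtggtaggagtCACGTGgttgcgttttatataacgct
Tspan4, chr7:141476309-141476354, plus strand: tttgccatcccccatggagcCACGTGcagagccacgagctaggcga
Ppp1r3c, chr19:36736683-36736728, minus strand: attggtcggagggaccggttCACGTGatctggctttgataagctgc
Cyp2a4, chr7:26307102-26307149, plus strand: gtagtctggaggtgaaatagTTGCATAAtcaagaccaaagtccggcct
Cyp2a5, chr7:26835248-26835295, plus strand: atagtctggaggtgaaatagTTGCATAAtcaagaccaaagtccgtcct
Of these genes Bhlhe41 and Ppp1r3c fell between ZT8 and ZT12 and the others rose. The sequences are a choice, and their split between rises and falls is not a result. E-box or D-box letters also stood in entries of Ddc, Atp2b2, Scap, Cbs and Lasp1, which fell. They stood as well in those of Tef, Lpin2, Slc1a2, Slc43a1, Dnajb9, Rrn3 and Il6ra, which rose. The E-box letters stood in the promoter entries (250 bases before the start to 50 after it) of 15.9% of the 690 genes that rose and had an entry, of 10.9% of the 713 that fell, and of 10.7% of all 13062 genes tested with an entry. The D-box letters stood in 4.93%, 2.52% and 2.90% of the same 3 sets. The cAMP response element (TGACGTCA) stood in 3.77%, 2.10% and 3.09%, in the same order. All motifs were searched on both strands, the E-box and D-box could stand in the same entry, and these shares are given without a test.

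Across 13734 genes of at least 1 scaled count, replicates correlated at r = 0.983 to 0.988 at ZT8 and 0.967 to 0.983 at ZT12, a correlation across genes that level differences between genes keep high. A scaled count is the level of a gene in 1 library, put back on a linear scale from the deposited values and summing to 887300 to 996657 in these libraries; it is not divided by gene length, so it compares samples and not genes. One scaled count stood for 415 to 723 of the whole counts recovered from the deposited values, which come to 3.79e+08 to 6.79e+08 a library, more than the reads the study describes, so they are not read numbers and precision was taken from the spread between animals. Liver identity was clear in every library, with the 9 hepatocyte markers tested summing to 112936 to 127873 scaled counts at ZT8 and 104470 to 137200 at ZT12. The markers of sinusoidal endothelium (545 to 632 and 567 to 592), Kupffer cells (698 to 878 and 778 to 865) and stellate cells (879 to 1055 and 943 to 1057) overlapped between the times. Erythroid markers summed to 614 to 1351 and 500 to 869. The 5 mesothelial markers, of which Msln and Wt1 were under 1 scaled count, summed to 103 to 110 at ZT8 and 67.7 to 97.7 at ZT12 without overlap. Whether other liver cells express the rest, such as Krt8, was not examined, so this sum is not read as a measure of mesothelium. Single markers of several lists were called: Krt8 of the mesothelial list (log2 −0.48, adjusted p = 0.022), Pdgfrb of the stellate list (log2 −0.50, adjusted p = 0.00219) and S100a9 of the 4 neutrophil markers tested (log2 −0.44, adjusted p = 0.0445) were lower. Fcgr2b of the sinusoidal endothelial list (log2 0.25, adjusted p = 0.0407) was higher. Of 9 hepatocyte markers 2 were called higher, and of 7 periportal hepatocyte markers 2 were higher (median log2 difference 0.27). Of 8 pericentral hepatocyte markers 1 was higher and 1 lower (median −0.04). The cholangiocyte, B cell, T and NK cell, neutrophil and acinar markers summed to under 31 in every library each, and of 5 adipocyte markers Cfd alone was tested, at up to 0.0193. The 1 acinar marker tested, Cela1, lay at 3.13 to 4.47 at ZT8 and 2.65 to 3.12 at ZT12 (adjusted p = 0.143). In bulk liver RNA, fewer cells of a type and less RNA per cell cannot be told apart. The length index, the rank correlation across genes between gene length and a library's log2 deviation from the mean of all 56 libraries, was −0.15 ± 0.06 (SD) at ZT8 and 0.04 ± 0.10 at ZT12 (exact permutation test, two-sided, p = 0.0571, where 0.0286 is the smallest p that 4 against 4 allow), and its part in the results was not tested beyond the refits with a length correction.

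Between ZT8 and ZT12, 2046 of 25393 genes (8.06%) were called, of which 958 (3.77%) rose and 1088 (4.28%) fell. A gene was called where its adjusted p in limma was under 0.05, in a model of log2(scaled count + 1) over all 56 libraries and 14 groups, so that the spread between animals came from the whole series. At an unadjusted p under 0.05 there were 5139 genes. The changes were mostly small, with a median absolute log2 difference of 0.41 among the genes called, and 136 of them moved by at least 1 on the log2 scale, 80 up and 56 down. The 4 and 4 libraries did not overlap for 2697 genes (10.6%), of which 1265 (4.98%) were higher at ZT12, and 1467 of the 2697 were called. Among the 13734 genes of at least 1 scaled count, 12.3% were called (842 higher, 846 lower) and the median log2 difference was −0.02. No gene list was tested as a set. Counts of list members called below can be set against 3.77% higher and 4.28% lower of all genes. They can also be set against this larger share among genes of at least 1 scaled count. A fit on these 8 libraries alone called 476 genes (229 higher, 247 lower), and leaving out ZT12 replicate 4 left 1178 calls. The values as deposited, without the return to a linear scale, called 1148 higher and 552 lower, or 67.5% higher against 46.8%.

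**Figure D1:**
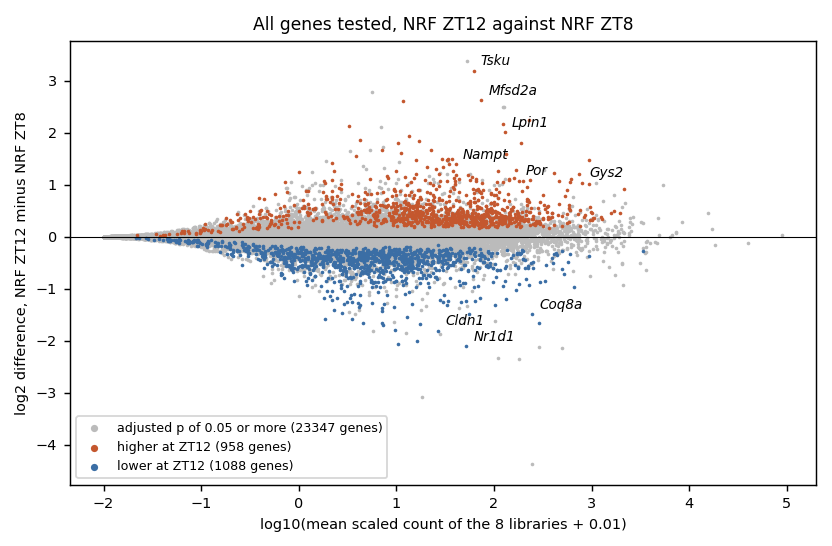
Log2 difference (ZT12 minus ZT8, NRF) of each gene against the log10 of its mean scaled count over the 8 libraries (0.01 added). Orange points are the 958 genes that rose, blue points the 1088 that fell and grey points the 23347 not called, and the labelled genes with the widest change, Tsku at 3.20 and Nr1d1 at −2.11, stand at either edge of the cloud.

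Among the named genes called without overlap and with a mean of at least 5 scaled counts at either time, the steepest rise was that of Tsku, which encodes Tsukushi, a small leucine-rich protein secreted by liver (chr7:98350668-98361328, minus strand). Tsku measured 11.8, 9.62, 8.56 and 15.0 scaled counts at ZT8 and 146, 94.4, 83.4 and 124 at ZT12, so that the highest ZT8 library lay far under the lowest ZT12 library. The means were 11.2 ± 2.84 and 112 ± 28.5 (SD, n = 4), a rise of 9.95-fold, log2 difference 3.20 ± 0.44, adjusted p = 1.73e-06; the error of a log2 difference is its SE. Mfsd2a, a membrane transporter of lysophospholipids carrying docosahexaenoic acid (chr4:122946850-122961188, minus strand), measured 13.2, 19.5, 26.3 and 21.2 scaled counts at ZT8 and 91.9, 144, 156 and 119.7 at ZT12. It rose 6.39-fold, log2 difference 2.63 ± 0.33, adjusted p = 1.84e-07, again with no overlap. Lpin1, a phosphatidate phosphatase that makes diacylglycerol and also acts as a transcriptional coactivator (chr12:16535669-16610966, minus strand), measured 47.9, 50.3, 56.1 and 48.3 scaled counts at ZT8 and 209, 173, 208 and 241 at ZT12. Its 4 libraries at ZT12 all stood over 3 times the highest at ZT8, and the rise was 4.10-fold, log2 difference 2.01 ± 0.30, adjusted p = 7.05e-06.

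The other genes with the largest rises came from varied functions. Zbtb16, a zinc finger transcription factor responsive to glucocorticoids, went from 68.2, 93.3, 69.6 and 76.3 to 463, 267, 315 and 472 scaled counts (4.93-fold, log2 difference 2.26 ± 0.42, adjusted p = 0.000289). Alas1, the rate-limiting enzyme of haem synthesis, went from 63.4, 76.0, 114 and 79.7 to 386, 370.3, 235 and 203 (3.59-fold, log2 difference 1.81 ± 0.37, adjusted p = 0.00078). Tfrc, the transferrin receptor that takes up iron, went from 4.19, 3.35, 3.11 and 4.25 to 16.6, 6.98, 16.5 and 28.8 (4.62-fold, log2 difference 1.81 ± 0.34, adjusted p = 0.000279). These 3 genes had separate groups but a wide spread at ZT12, with Tfrc ranging over 4 times from replicate 2 to replicate 4. Aacs, a cytosolic ligase that turns acetoacetate into acetoacetyl-CoA for lipid synthesis, measured 57.5, 61.5, 112 and 41.0 scaled counts at ZT8 and 172, 174, 258 and 185 at ZT12 (2.91-fold, log2 difference 1.6 ± 0.37, adjusted p = 0.00371). Zfp970, a zinc finger gene, measured 4.91, 2.56, 4.77 and 7.44 scaled counts at ZT8 and 26.2, 26.4, 11.6 and 23.1 at ZT12 (4.43-fold, log2 difference 1.94 ± 0.43, adjusted p = 0.00205). Eif4ebp3, a binding protein that restrains the cap-binding factor eIF4E, measured 1.23, 1.59, 1.21 and 1.85 scaled counts at ZT8 and 7.34, 6.41, 5.20 and 5.88 at ZT12 (4.23-fold, log2 difference 1.55 ± 0.34, adjusted p = 0.00183), and its level is uncertain because it shares much of its exon length with another gene on the same strand. In the fit on the 8 libraries alone the calls of Tfrc (adjusted p = 0.0602) and Thrsp (adjusted p = 0.0565) were lost.

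On the same footing the largest fall was that of Nr1d1, which encodes the repressor REV-ERBα (chr11:98767932-98775333, minus strand). Nr1d1 measured 88.1, 86.9, 80.2 and 78.8 scaled counts at ZT8 and 18.6, 31.0, 16.7 and 12.3 at ZT12. The groups were separate, tight at ZT8 and wider at ZT12, with means of 83.5 ± 4.70 and 19.6 ± 8.01 (SD). Nr1d1 was thus 4.26-fold lower at ZT12, log2 difference −2.11 ± 0.31, adjusted p = 5.96e-06. Cldn1, a claudin of tight junctions (chr16:26356642-26371841, minus strand), measured 44.5, 44.9, 36.6 and 41.8 scaled counts at ZT8 and 11.9, 10.9, 9.5 and 12.7 at ZT12 (3.73-fold lower, log2 difference −1.81 ± 0.14, adjusted p = 6.49e-13), the lowest adjusted p among the falls named here together with a spread of a few counts in either group. Coq8a, a mitochondrial kinase-like protein needed to make coenzyme Q, measured 309.8, 363, 394 and 374 scaled counts at ZT8 and 98.5, 128, 154 and 134 at ZT12 (2.81-fold lower, log2 difference −1.49 ± 0.25, adjusted p = 4.34e-05). Sgk2, a serine/threonine kinase, measured 91.1, 100.2, 57.9 and 77.1 scaled counts at ZT8 and 29.5, 28.5, 34.0 and 20.7 at ZT12 (2.90-fold lower, log2 difference −1.49 ± 0.18, adjusted p = 1.65e-07). All 4 fell in every ZT12 library relative to every ZT8 library.

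Further falls of this size were seen for Pde9a, a phosphodiesterase specific to cGMP (27.8, 26.8, 25.1 and 26.8 to 10.8, 7.99, 6.22 and 6.18, 3.41-fold lower, log2 difference −1.68 ± 0.17, adjusted p = 1.03e-09). Atp2b2, a calcium pump of the plasma membrane, went from 12.2, 11.0, 10.1 and 11.2 to 3.97, 3.04, 3.48 and 1.35 (3.75-fold lower, log2 difference −1.66 ± 0.34, adjusted p = 0.000746). Dtx4, a ubiquitin ligase of the Deltex family, went from 23.4, 21.1, 13.4 and 21.3 to 6.28, 5.95, 6.10 and 5.50 (3.32-fold lower, log2 difference −1.55 ± 0.15, adjusted p = 3.93e-10). ZT8 replicate 3 was the lowest ZT8 library for Dtx4, Sgk2, Cldn1 and Eps8l2 and still lay above every ZT12 library. Eps8l2, an EPS8-like protein linked to actin remodelling, went from 31.1, 29.0, 17.2 and 28.6 to 8.89, 7.19, 4.04 and 3.89 (4.41-fold lower, log2 difference −2.01 ± 0.20, adjusted p = 1.4e-09), with 32.2% of its exon length overlapped by a gene on the opposite strand. Mrnip, a partner of the MRE11-RAD50-NBS1 DNA repair complex, went from 9.33, 7.95, 4.96 and 7.27 to 1.56, 1.93, 1.65 and 1.24 (4.62-fold lower, log2 difference −1.67 ± 0.17, adjusted p = 2.48e-09), with 28.4% overlapped. Whether counting used strand is not given in the sources used here, so reads of such partners cannot be told apart. The near-identical copies Tmem254a and Tmem254b also met the rule (log2 difference −2.06 ± 0.67, adjusted p = 0.0462 and log2 difference −1.66 ± 0.45, adjusted p = 0.013), and both are uncertain because reads may be split between them. Tmem254a lost its call without any of 7 of the 8 libraries (adjusted p up to 0.151) and Tmem254b without ZT12 replicate 3 or 4 (up to 0.0736).

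Among the 5 clock activators tested, 2 rose and 2 fell (median log2 difference −0.25, against −0.0007 over all genes). Arntl, which encodes BMAL1, was already low at ZT8 and fell further, from 6.72, 6.26, 2.73 and 3.77 to 1.41, 1.53, 1.07 and 1.49 scaled counts (3.54-fold lower, log2 difference −1.25 ± 0.19, adjusted p = 8.26e-06). Its partner Clock measured 64.2, 69.5, 35.8 and 57.0 scaled counts at ZT8 and 35.2, 26.7, 25.0 and 34.9 at ZT12 (1.86-fold lower, log2 difference −0.85 ± 0.16, adjusted p = 0.000199). In both genes ZT8 replicate 3 was the lowest ZT8 library, and the groups still did not overlap. Rora, which encodes an activating nuclear receptor, moved the other way and measured 166, 180.4, 162 and 149.7 scaled counts at ZT8 and 179.7, 191, 227 and 225 at ZT12 with overlapping groups (log2 difference 0.32 ± 0.07, adjusted p = 0.00324). The 8 libraries alone did not call Arntl (adjusted p = 0.0534), Clock (0.12) or Rora (0.165).

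Of 11 clock repressors, 5 rose and 2 fell (median 0.43), and the period genes moved together. Per1 measured 7.72, 6.45, 10.6 and 13.1 scaled counts at ZT8 and 21.7, 26.7, 22.7 and 19.1 at ZT12 (2.38-fold, log2 difference 1.20 ± 0.27, adjusted p = 0.00244). Per2 went from 14.9, 15.4, 25.6 and 20.2 to 72.6, 49.9, 43.7 and 54.6 (log2 difference 1.5 ± 0.26, adjusted p = 8.2e-05). Per3 went from 19.7, 19.9, 35.9 and 24 to 60.8, 52.9, 62.7 and 50.1 (log2 difference 1.19 ± 0.20, adjusted p = 4.25e-05). All 3 had separate groups, and ZT8 replicates 3 and 4 were the higher ZT8 libraries for each. With the values as deposited Per1 was not called (adjusted p = 0.0739). Cry1, a cryptochrome that represses CLOCK and BMAL1, went from 14.9, 15.3, 17.0 and 19.3 to 44.5, 35.1, 53.0 and 67.9 (3.02-fold, log2 difference 1.5 ± 0.20, adjusted p = 5.31e-07). Cry2 measured 42.5 ± 2.74 and 42.8 ± 5.66 (adjusted p = 0.991). Ciart, a repressor expressed at low level, went from 0.905, 0.964, 1.68 and 1.25 to 1.91, 3.52, 1.85 and 3.54 (2.25-fold, log2 difference 0.73 ± 0.11, adjusted p = 1.17e-05).

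Against the period genes stood Nr1d1, described above, and Bhlhe41, which encodes the E-box repressor DEC2. Bhlhe41 measured 1.98, 1.35, 2.71 and 1.92 scaled counts at ZT8 and 0.735, 1.04, 0.704 and 0.279 at ZT12 (2.88-fold lower, log2 difference −0.82 ± 0.10, adjusted p = 1.76e-07). The paralogues of both did not pass the test. Nr1d2 (REV-ERBβ) measured 148, 158, 182 and 139.8 scaled counts at ZT8 and 168, 198, 274 and 219 at ZT12 (adjusted p = 0.106). Bhlhe40 measured 33.9 ± 6.65 and 34.6 ± 4.51 (adjusted p = 0.971). Nr1d1 and Nr1d2 therefore had log2 differences of opposite sign, −2.11 and 0.43. The D-box repressor Nfil3 measured 12.7, 9.91, 12.2 and 11.7 scaled counts at ZT8 and 12.1, 12.8, 11.3 and 13.5 at ZT12 (adjusted p = 0.844). The 8 libraries alone did not call Bhlhe41 (adjusted p = 0.0766) or Ciart (0.139).

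Of 12 clock outputs 7 rose and 3 fell (58.3% and 25%, against 3.77% and 4.28% of all genes, median 0.85). The list was chosen with earlier results of these data known, so its share of calls is not a result about clock outputs. Por, the reductase that supplies electrons to cytochrome P450 enzymes, measured 104, 123, 117 and 113 scaled counts at ZT8 and 239.9, 258, 236 and 236 at ZT12 (2.12-fold, log2 difference 1.08 ± 0.11, adjusted p = 9.88e-10), with a gap between groups far wider than the spread within them. Lonrf3, a RING finger gene, went from 2.12, 2.37, 4.15 and 2.69 to 8.30, 10.6, 14 and 12.0 (3.96-fold, log2 difference 1.68 ± 0.15, adjusted p = 2.09e-10). Usp2, a ubiquitin protease that acts on clock proteins, went from 8.83, 6.94, 16 and 10.8 to 38.9, 32.7, 35.5 and 32.8 (3.28-fold, log2 difference 1.68 ± 0.26, adjusted p = 1.1e-05). Its call was lost with the values as deposited (adjusted p = 0.0596). The cell cycle kinase gene Wee1 (14.3, 12.3, 19.5 and 15.0 to 25.5, 29.1, 38.9 and 32.8, log2 1.01, adjusted p = 1.2e-05) also rose. So did the PAR bZIP factor Tef (45.8, 49.0, 67.3 and 52.6 to 86.2, 89.5, 127 and 99.5, log2 0.89, adjusted p = 0.000782). Ddc, the decarboxylase of aromatic amino acids, fell from 61.4, 78.9, 54.8 and 63.1 to 25.9, 27.2, 22.5 and 30.2 (2.44-fold lower, log2 difference −1.25 ± 0.14, adjusted p = 3.23e-08).

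Dbp and Hlf, the other PAR bZIP genes, did not pass the test over these 4 h. Dbp measured 34.5, 37.2, 58.1 and 42.1 scaled counts at ZT8 and 45.7, 59.9, 40 and 43.6 at ZT12 (log2 difference 0.15 ± 0.21, adjusted p = 0.793). Hlf measured 54.9, 53.5, 35.2 and 55.3 scaled counts at ZT8 and 64.1, 57.7, 38.3 and 73.0 at ZT12 (log2 difference 0.21 ± 0.19, adjusted p = 0.612). Both pairs of groups overlapped, so of the 3 PAR bZIP genes Tef was called and Dbp and Hlf were not. Of the 21 members of the 3 clock lists that were called, 18 had a promoter entry, and 9 of those held an E-box or D-box. Among them were the sequences of Per1, Per3, Cry1, Ciart, Bhlhe41, Lonrf3 and Tspan4 above. Over all 13062 genes tested with an entry, 10.7% held the E-box and 2.90% the D-box, and the share with either was not computed. A gene with several entries was counted if any held the letters, and the 9 are a description only. Tspan4, a tetraspanin, measured 8.25, 8.66, 10.4 and 7.70 scaled counts at ZT8 and 16.2, 14.3, 17.4 and 16 at ZT12 (log2 0.81, adjusted p = 0.000341).

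**Figure D2:**
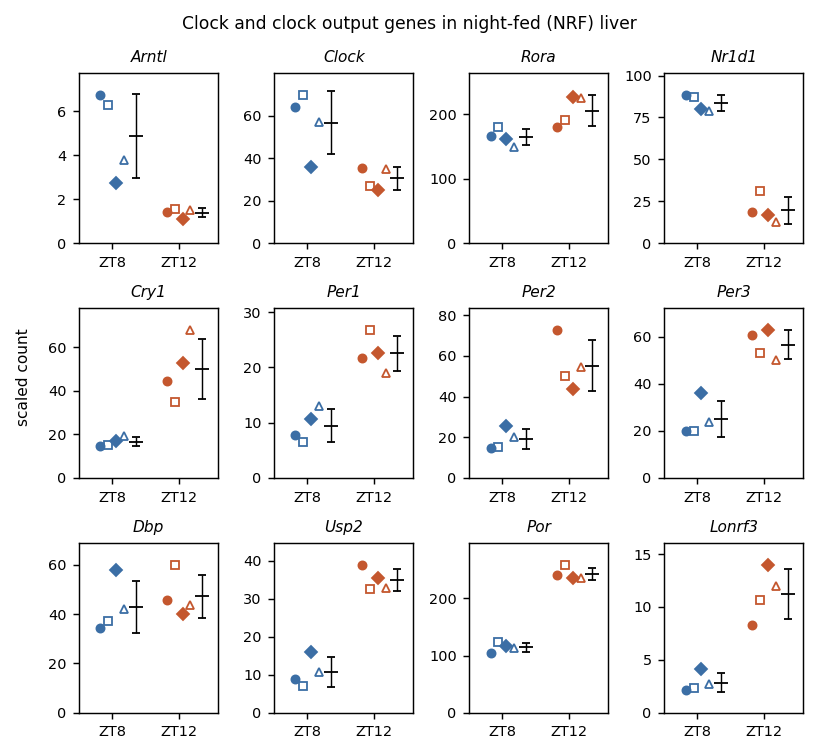
Scaled counts of 12 clock genes and outputs in the 4 NRF libraries at ZT8 (blue) and the 4 at ZT12 (orange), each axis from 0. Circle, square, diamond and triangle mark replicates 1 to 4, and the black dash with bar gives the mean ± SD. Arntl, Clock and Nr1d1 lie lower at ZT12, Dbp and Rora overlap, and Cry1, Per1 to Per3, Usp2, Por and Lonrf3 lie higher without overlap.

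Of 28 genes of fat oxidation and ketogenesis 2 rose (7.14%, against 3.77% of all genes) and none fell (median log2 difference 0.004). Among genes of at least 1 scaled count 842 of 13734 rose, a larger share than that of all genes. Cpt1a, the carnitine palmitoyltransferase that admits fatty acids to mitochondria, measured 185, 194, 154 and 187 scaled counts at ZT8 and 229, 256, 235 and 242 at ZT12 (1.33-fold, log2 difference 0.42 ± 0.14, adjusted p = 0.0467). Its groups were separate, and it lost its call without any of the 8 libraries (adjusted p up to 0.166). Ppara, the nuclear receptor of the fasting response, measured 249.7, 267, 279.7 and 263 scaled counts at ZT8 and 278, 321, 428 and 336 at ZT12 (adjusted p = 0.142). Pdk4, the kinase that switches off pyruvate dehydrogenase, measured 5.60, 5.25, 2.23 and 3.33 scaled counts at ZT8 and 1.72, 6.49, 4.85 and 5.35 at ZT12 (adjusted p = 0.934). Neither Ppara nor Pdk4 passed the test, and the groups of each overlapped.

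In the lipid droplet and lipolysis list 4 of 15 rose (26.7%, against 3.77% of all genes) and none fell (median 0.19). Lpin2, another phosphatidate phosphatase of the lipin family, went from 49.5, 48.3, 48.6 and 47.2 to 71.6, 104, 124 and 109 (2.10-fold, log2 difference 1.03 ± 0.12, adjusted p = 2.03e-08). The ZT8 values of Lpin2 lay within 3 scaled counts of each other, and every ZT12 library lay above them. The droplet coat gene Plin4 measured 0.438, 0.358, 0.193 and 0.376 scaled counts at ZT8 and 1.6, 0.948, 0.786 and 0.848 at ZT12 (3.07-fold, log2 difference 0.60 ± 0.17, adjusted p = 0.0216). The droplet fusion gene Cidec measured 0.538, 0.561, 0.672 and 0.254 scaled counts at ZT8 and 0.723, 1.32, 1.30 and 0.785 at ZT12 (2.04-fold, log2 difference 0.43 ± 0.12, adjusted p = 0.0217). Both were at low level, and Plin4 lost its call without ZT8 replicate 3 or ZT12 replicate 1 (adjusted p up to 0.101). Cidec lost it without ZT8 replicate 4 or ZT12 replicate 2 or 3 (up to 0.127). Pnpla2, the adipose triglyceride lipase, measured 14.5 ± 0.886 and 17.2 ± 4.08 (adjusted p = 0.419). The coat gene Plin2 measured 291 ± 73.2 and 226 ± 65.1 (adjusted p = 0.397).

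In de novo lipogenesis 4 of 17 rose (23.5%, against 3.77% of all genes) and none fell (median 0.44). Thrsp, the Spot 14 protein that promotes lipogenesis and was also among the 12 largest rises, measured 29.6, 30.7, 85.3 and 36.6 scaled counts at ZT8 and 139, 119, 262 and 287 at ZT12 (4.43-fold, log2 difference 2.16 ± 0.46, adjusted p = 0.00131), with ZT12 replicates 3 and 4 well above replicates 1 and 2. Fads2, the delta-6 desaturase, measured 359.7, 532, 339.5 and 360.0 scaled counts at ZT8 and 643, 649, 722 and 704 at ZT12 (1.71-fold, log2 difference 0.79 ± 0.11, adjusted p = 4.2e-06). Elovl6, which elongates palmitate, went from 20.2, 20.6, 28.1 and 15.5 to 32.7, 38.4, 69.6 and 75.9 (2.57-fold, log2 difference 1.26 ± 0.32, adjusted p = 0.00696). Dgat2, which completes triglycerides, went from 580.0, 603, 639.5 and 615 to 679, 809, 917 and 919.6 (1.36-fold, log2 difference 0.44 ± 0.11, adjusted p = 0.00559). Elovl6 repeated the split within ZT12 seen for Thrsp, and without ZT12 replicate 4 its call was lost (adjusted p = 0.0569). Fasn, the fatty acid synthase, measured 121, 160.3, 177 and 116 scaled counts at ZT8 and 179.7, 133, 378 and 257 at ZT12 (adjusted p = 0.367). Acaca, the acetyl-CoA carboxylase, measured 160.4, 181, 184 and 162 scaled counts at ZT8 and 216, 186, 344 and 300.5 at ZT12 (adjusted p = 0.114). The groups lay just apart for Acaca and overlapped for Fasn. Srebf1, their regulator SREBP-1, measured 114, 143, 197 and 134 scaled counts at ZT8 and 179, 164, 223 and 223 at ZT12 (adjusted p = 0.201). The groups overlapped for Srebf1, and ZT12 replicates 3 and 4 were the high pair for all 3 genes. On the 8 libraries alone, Fads2 was the member that kept its call.

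Cholesterol genes showed 1 rise (3.70%) and 3 falls (11.1%) of 27 (median −0.12), against 3.77% and 4.28% of all genes. Among genes of at least 1 scaled count 12.3% were called in either direction. Insig2, which holds the SREBP escort in the endoplasmic reticulum, fell from 29.8, 32.8, 24.2 and 27.6 to 13.2, 10.2, 15.5 and 18.6 (1.99-fold lower, log2 difference −0.97 ± 0.20, adjusted p = 0.000776). The cytosolic synthase Hmgcs1 measured 363, 859, 226 and 316 scaled counts at ZT8 and 271, 190.1, 246 and 166 at ZT12 (log2 difference −0.85 ± 0.26, adjusted p = 0.0309). This fall rested on ZT8 replicate 2: without that library the log2 difference was −0.47 (adjusted p = 0.294). The same library was the highest at ZT8 for Idi1 (46.8, 118, 28.2 and 40.1), Cyp51 (200.2, 414, 128 and 196) and Sqle (45.2, 85.8, 19 and 46.8), none of which passed the test. Scap, the SREBP escort, had a log2 difference of −0.30, adjusted p = 0.0324 and lost its call without any of 6 of the 8 libraries (up to 0.126).

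In the bile acid list 2 of 13 fell (15.4%, against 4.28% of all genes) and none rose (median −0.04). With the values as deposited 1 member rose and none fell. Abcb11, the bile salt export pump, measured 671, 686, 662 and 644 scaled counts at ZT8 and 405, 428, 601 and 497 at ZT12 (1.38-fold lower, log2 difference −0.48 ± 0.10, adjusted p = 0.000788). Hsd3b7, an early enzyme of bile acid synthesis, measured 79.3, 84.5, 57.5 and 73.0 scaled counts at ZT8 and 29.7, 25.0, 39.8 and 28.2 at ZT12 (2.40-fold lower, log2 difference −1.24 ± 0.27, adjusted p = 0.00148). Its level is uncertain, with 62.4% of its exon length overlapped on the opposite strand, where 9430064I24Rik lies, a gene that fell as well. Abcb11 was not called in the fit on the 8 libraries alone (adjusted p = 0.119). Cyp7a1, the rate-limiting enzyme, measured 119.5, 172, 160.5 and 155 scaled counts at ZT8 and 329, 159, 139 and 342 at ZT12, with ZT12 replicates 2 and 3 near the ZT8 level and replicates 1 and 4 above it (adjusted p = 0.441).

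In gluconeogenesis and its cAMP control 5 of 17 rose and none fell (median 0.17). Foxo1, the transcription factor that insulin restrains, measured 99.8, 96.9, 88.8 and 98.0 scaled counts at ZT8 and 171, 133, 157 and 166 at ZT12 (1.64-fold, log2 difference 0.70 ± 0.11, adjusted p = 2.29e-05). Gpt2, the mitochondrial alanine aminotransferase, measured 346, 319, 516 and 373 scaled counts at ZT8 and 617, 705, 691 and 877 at ZT12 (1.86-fold, log2 difference 0.91 ± 0.16, adjusted p = 0.000113). Slc37a4, the glucose-6-phosphate transporter, measured 22.1, 21.1, 33.8 and 23.9 scaled counts at ZT8 and 39.6, 34.1, 61.5 and 69.1 at ZT12 (2.03-fold, log2 difference 0.96 ± 0.21, adjusted p = 0.00159). All 3 had separate groups. Pck1, the cytosolic phosphoenolpyruvate carboxykinase, went from 377, 393, 457 and 548 to 740.3, 1245, 1121 and 1036 (log2 difference 1.21 ± 0.36, adjusted p = 0.0257). Sik1, a kinase induced by cAMP, went from 6.76, 8.56, 17.7 and 11.9 to 15.4, 34.7, 35.1 and 34.0 (2.65-fold, log2 difference 1.34 ± 0.24, adjusted p = 0.000139), with ZT12 replicate 1 inside the ZT8 range. G6pc, the glucose-6-phosphatase subunit, measured 40.9, 68.2, 49.8 and 78.7 scaled counts at ZT8 and 53.5, 97.8, 151 and 172 at ZT12 (adjusted p = 0.103). Ppargc1a, a coactivator of the fasting response, measured 44.2, 52.1, 50.2 and 38.7 scaled counts at ZT8 and 55.6, 65.7, 47.4 and 48.9 at ZT12 (adjusted p = 0.448). The groups of G6pc and of Ppargc1a overlapped. On the 8 libraries alone Gpt2 (0.0511), Sik1 (0.124) and Slc37a4 (0.125) had adjusted p over the threshold.

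Glycolysis and glycogen gave 7 rises and 1 fall of 19 (median 0.24), and the regulatory subunits that bring protein phosphatase 1 to glycogen moved in both directions. Gys2, the liver glycogen synthase, measured 455, 456, 668 and 495 scaled counts at ZT8 and 792, 1170.4, 1223 and 1093 at ZT12 (2.06-fold, log2 difference 1.04 ± 0.11, adjusted p = 1.02e-08). Ppp1r3b, the main glycogen-targeting subunit of liver, measured 18.6, 17.6, 10.4 and 18.1 scaled counts at ZT8 and 59.9, 23.8, 39.9 and 52.6 at ZT12 (2.73-fold, log2 difference 1.35 ± 0.24, adjusted p = 0.000111). Ppp1r3c, the related subunit PTG (chr19:36731731-36736653, minus strand), went the other way, from 20.2, 15.7, 13.5 and 13.5 to 3.92, 3.02, 4.70 and 3.44 (4.17-fold lower, log2 difference −1.8 ± 0.19, adjusted p = 2.45e-09). The groups of all 3 genes were separate, with Ppp1r3b and Ppp1r3c of the same family moving in opposite directions. Ppp1r3g, a subunit described in fasting liver, measured 0.516, 0.00488, 0.0626 and 0.0353 scaled counts at ZT8 and 0.0212, 14.2, 6.89 and 4.08 at ZT12, near 0 in ZT12 replicate 1 and at 4 or more in the other ZT12 libraries (log2 difference 2.13 ± 0.35, adjusted p = 3.44e-05). Leaving out 1 library at a time gave log2 differences of 1.6 to 2.90 for Ppp1r3g, the highest without ZT12 replicate 1, and on the 8 libraries alone it was not called (adjusted p = 0.223), nor was Ppp1r3b (0.0866).

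The other rises in this list were those of Slc2a2, Pfkfb1, Pfkfb3 and Gbe1. Slc2a2, the liver glucose transporter GLUT2, went from 466, 447, 532 and 412 to 506, 609, 889 and 783 (log2 0.56, adjusted p = 0.00391), with overlapping groups. Pfkfb1 and Pfkfb3 make and break down fructose 2,6-bisphosphate, and their groups were separate. Pfkfb1 went from 7.88 ± 0.347 to 12.4 ± 1.30 (log2 0.59, adjusted p = 0.000695) and Pfkfb3 from 14.4 ± 4.61 to 29.9 ± 6.05 (log2 1.03, adjusted p = 0.00696). Gbe1, the glycogen branching enzyme, had a log2 difference of 0.46, adjusted p = 0.0325, with overlapping groups. Pygl, the liver glycogen phosphorylase, measured 309.8 ± 26.8 and 292 ± 52.7 (adjusted p = 0.745).

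Among 13 genes of insulin and FOXO signalling 3 rose and none fell (median −0.12). Foxo3 went from 109, 105, 162 and 126 to 156, 159, 169 and 178 (1.32-fold, log2 difference 0.42 ± 0.10, adjusted p = 0.00603). The phosphoinositide 3-kinase subunit Pik3r1 went from 107, 116, 99.0 and 108 to 208, 116, 147 and 184 (1.53-fold, log2 difference 0.57 ± 0.15, adjusted p = 0.00805). The insulin receptor Insr went from 529.5, 505, 512 and 532 to 576, 567, 738 and 682 (1.23-fold, log2 difference 0.29 ± 0.08, adjusted p = 0.0176). Pik3r1 lost its call without ZT12 replicate 1 or 4 (adjusted p up to 0.055) and Insr without ZT8 replicate 2 or ZT12 replicate 3 or 4 (up to 0.121). On the 8 libraries alone Foxo3 had an adjusted p of 0.192. Foxo3 overlapped between the groups and Insr did not. A length correction called 2 members higher and 1 lower. Irs2, the insulin receptor substrate, measured 47.8, 55.3, 63.1 and 54.2 scaled counts at ZT8 and 27.6, 40.7, 45.4 and 46.6 at ZT12 (adjusted p = 0.37). Igfbp1, a FOXO target, measured 13.1, 15.3, 20.4 and 23.1 scaled counts at ZT8 and 7.73, 53.3, 37.4 and 61.3 at ZT12 (adjusted p = 0.517). ZT12 replicate 1 had the lowest value of all 8 libraries for Igfbp1, lay near 0 for Ppp1r3g and was the lowest ZT12 library for Sik1. What set this animal apart was not tested.

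**Figure D3:**
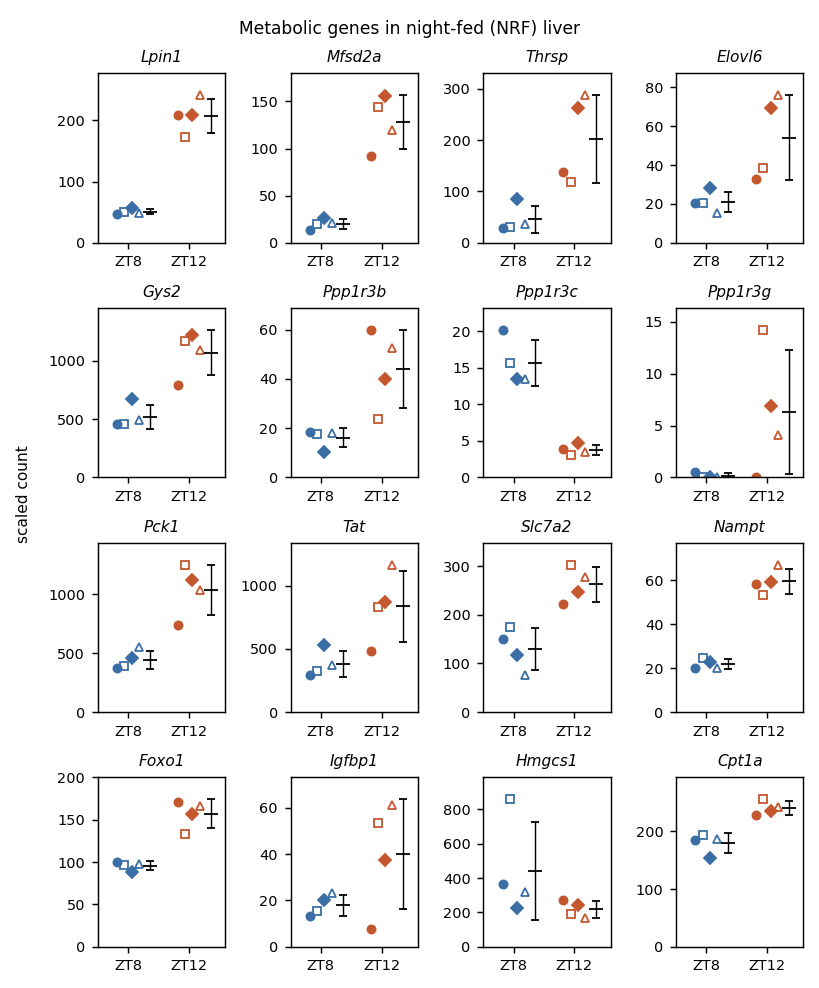
Scaled counts of 16 genes of lipid, glucose, glycogen, amino acid and NAD metabolism in the NRF libraries at ZT8 (blue) and ZT12 (orange), each axis from 0. Symbols mark replicates 1 to 4 and the black dash with bar gives the mean ± SD. Lpin1, Mfsd2a, Gys2, Ppp1r3b, Foxo1 and Nampt lie higher at ZT12 and Ppp1r3c lower without overlap, while Ppp1r3g and Igfbp1 spread widely at ZT12.

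Amino acid breakdown and the urea cycle gave 5 rises and 1 fall of 25 (median 0.27). Tat, the tyrosine aminotransferase that glucocorticoids induce, measured 289.8, 328, 528 and 373 scaled counts at ZT8 and 483, 830.5, 867 and 1165 at ZT12 (2.20-fold, log2 difference 1.11 ± 0.25, adjusted p = 0.00214). The highest ZT8 library of Tat, replicate 3, lay above ZT12 replicate 1. Arg1, the arginase of the urea cycle, measured 739, 679, 823 and 641 scaled counts at ZT8 and 836, 1026, 888 and 1015 at ZT12 (1.31-fold, log2 difference 0.39 ± 0.11, adjusted p = 0.0167). Asl, the argininosuccinate lyase, measured 230.2, 246, 304 and 231 scaled counts at ZT8 and 324, 344, 391 and 507 at ZT12 (1.55-fold, log2 difference 0.62 ± 0.16, adjusted p = 0.00829). Cbs, the cystathionine beta-synthase of the transsulphuration route, fell from 168, 172, 174 and 152 to 91.7, 95.0, 102 and 81.3 (1.8-fold lower, log2 difference −0.84 ± 0.09, adjusted p = 3.09e-09) with narrow groups. The urea cycle entry enzyme Cps1 measured 12438, 12112, 16791 and 11157 scaled counts at ZT8 and 14266, 15928, 18672 and 23811 at ZT12 (adjusted p = 0.131). Arg1 lost its call without any of 3 libraries (adjusted p up to 0.0836) and Asl without ZT12 replicate 4 (0.0826). In the fit restricted to the 8 libraries Cbs was the member that kept its call.

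Amino acid transporters gave 6 rises and 2 falls of 12 (median 0.40). Slc38a2, the sodium-coupled neutral amino acid transporter SNAT2, measured 26.9, 31.5, 31.1 and 33.4 scaled counts at ZT8 and 45.9, 52.4, 68.4 and 62.8 at ZT12 (1.87-fold, log2 difference 0.87 ± 0.14, adjusted p = 2.18e-05). Slc38a4, its liver relative, went from 253, 285, 356 and 259 to 332, 411, 424 and 441 (1.4-fold, log2 difference 0.48 ± 0.11, adjusted p = 0.00311). Slc1a2, a glutamate transporter, went from 126, 137, 115 and 111 to 163, 165, 174 and 179 (1.39-fold, log2 difference 0.48 ± 0.11, adjusted p = 0.00446). Slc43a1, a transporter of large neutral amino acids, went from 6.41, 6.51, 9.00 and 6.79 to 9.23, 10.8, 12.8 and 12.7 (1.59-fold, log2 difference 0.60 ± 0.15, adjusted p = 0.00579). The cationic transporter Slc7a2 rose as well, from 150.2, 174, 117 and 76.2 to 222, 303, 247 and 278 (log2 1.07, adjusted p = 0.014). The members that fell were Slc1a4 (log2 −0.79, adjusted p = 0.00886) and Slc7a8 (log2 −0.54, adjusted p = 0.0281), both carriers of neutral amino acids. Slc38a4 (0.136) and Slc43a1 (0.0841) had adjusted p over the threshold on the 8 libraries alone.

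Of 16 genes that respond to glucocorticoids 6 rose and none fell (median 0.49), among them Lpin1, Zbtb16 and Per1 given above. Tsc22d3, the glucocorticoid-induced leucine zipper GILZ, measured 89.9, 86.9, 89.5 and 141 scaled counts at ZT8 and 208, 194, 187 and 298 at ZT12 (2.18-fold, log2 difference 1.12 ± 0.23, adjusted p = 0.00106). Errfi1, a feedback inhibitor of the EGF receptor, went from 54.1, 84.7, 112 and 149 to 179, 206, 297 and 253 (log2 1.28, adjusted p = 0.0132). For both, ZT8 replicate 4 was the highest ZT8 library. Fkbp5, a widely used glucocorticoid target, measured 55.7, 63.6, 23.9 and 52.4 scaled counts at ZT8 and 97.3, 67.9, 86.8 and 89.2 at ZT12 (adjusted p = 0.26), with ZT8 replicate 3 the lowest. Sgk1, a kinase gene of the same family as Sgk2, measured 20.9, 27.0, 21.3 and 32.5 scaled counts at ZT8 and 26.5, 33.2, 40.7 and 36.2 at ZT12 (adjusted p = 0.0753). The metallothioneins split the ZT12 group: Mt1 measured 60.9, 50.8, 9.57 and 8.96 at ZT12 against 48.9, 31.8, 55.7 and 52.3 at ZT8 (adjusted p = 0.197). Mt2 measured 64.0, 49.8, 5.31 and 8.69 against 53.6, 38.2, 60.2 and 66.7 (adjusted p = 0.088). ZT12 replicates 3 and 4 were the low pair for both metallothioneins and the high pair for Thrsp and Elovl6. The list's members are held by other lists too (Lpin1, Per1), and the receptor gene Nr3c1 itself measured 272 ± 65.4 and 287 ± 56.6 (adjusted p = 0.907).

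NAD metabolism gave 2 rises and no fall of 12 (16.7%, against 3.77% of all genes and 842 of 13734 genes of at least 1 scaled count, median 0.04). Nampt, the rate-limiting enzyme of NAD salvage and a clock target, measured 20.1, 24.6, 22.9 and 20 scaled counts at ZT8 and 58.2, 53.3, 59.3 and 67.0 at ZT12 (2.72-fold, log2 difference 1.4 ± 0.10, adjusted p = 6.49e-13). Nmrk1, the nicotinamide riboside kinase of a parallel route, measured 24.8, 21.1, 30.4 and 20.9 scaled counts at ZT8 and 47.7, 48.1, 67.5 and 53.6 at ZT12 (2.23-fold, log2 difference 1.13 ± 0.14, adjusted p = 1.88e-07). In each, the lowest ZT12 library lay well above the highest ZT8 library, and both calls held in the fit on these 8 libraries alone (adjusted p = 0.00289 and 0.0234). The NAD-dependent deacetylase Sirt1 measured 25.3 ± 1.76 and 29.2 ± 5.97 (adjusted p = 0.712). Nnmt, which consumes nicotinamide, measured 62.1, 67.9, 86.1 and 63.0 scaled counts at ZT8 and 105, 78.4, 103 and 157 at ZT12 (adjusted p = 0.09).

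Drug metabolism gave 7 rises and no fall of 18 (median 0.21), which included its nuclear receptors. Nr1i2, which encodes the xenobiotic receptor PXR, measured 159.9, 166, 127 and 145 scaled counts at ZT8 and 254, 269, 339 and 297 at ZT12 (1.94-fold, log2 difference 0.95 ± 0.11, adjusted p = 2.78e-08). Nr1i3 (CAR) had a log2 difference of 0.46, adjusted p = 0.0198, and their partner Rxra of 0.21, adjusted p = 0.0136. Cyp2a4 and Cyp2a5, whose promoter windows above carry the same D-box letters, also rose. Cyp2a4 measured 375, 323, 537 and 344 scaled counts at ZT8 and 604, 819.5, 972 and 869.6 at ZT12 (2.07-fold, log2 difference 1.05 ± 0.25, adjusted p = 0.00486). Cyp2a5 measured 495, 557, 1013 and 487 scaled counts at ZT8 and 868, 1652, 1047 and 1487 at ZT12 (1.98-fold, log2 difference 1.01 ± 0.26, adjusted p = 0.00888). These are near-identical copies, so reads may be split between them and each value is uncertain, and the groups of Cyp2a5 overlapped. Cyp3a13 went from 247, 240.1, 248 and 231 to 305, 286, 327 and 428 (1.39-fold, log2 difference 0.46 ± 0.11, adjusted p = 0.00554) and lost its call without ZT12 replicate 4 (adjusted p = 0.0757). Cyp3a11, a PXR target, measured 1892 ± 221 and 2079.9 ± 167 (adjusted p = 0.617). Cyp2b10, a CAR target, measured 87.7, 54.0, 122 and 46.0 scaled counts at ZT8 and 21.2, 49.1, 43.3 and 60.5 at ZT12 (adjusted p = 0.215). Nr1i2 was the member of this list that the 8 libraries alone called.

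Heat shock genes gave 2 rises of 18 (11.1%, against 3.77% of all genes and 842 of 13734 genes of at least 1 scaled count, median 0.19). With the values as deposited there were 6. Chordc1, an HSP90 co-chaperone, measured 6.02, 6.51, 4.95 and 5.31 scaled counts at ZT8 and 10.8, 7.88, 8.85 and 12.6 at ZT12 (1.76-fold, log2 difference 0.71 ± 0.17, adjusted p = 0.00352), and was not called on the 8 libraries alone (adjusted p = 0.0672). Dnaja1, an HSP40, measured 42.9, 51.1, 36.3 and 43.4 scaled counts at ZT8 and 74.2, 64.7, 39.7 and 73.9 at ZT12 (1.45-fold, log2 difference 0.50 ± 0.15, adjusted p = 0.0247) and overlapped between the groups. Its call was lost without any of 5 libraries (adjusted p up to 0.145). Hspa1b measured 0.758, 0.723, 0.775 and 1.13 scaled counts at ZT8 and 2.97, 2.12, 2.47 and 3.19 at ZT12 (adjusted p = 0.107), in separate groups that did not pass the test. Endoplasmic reticulum chaperones gave 2 rises of 18 (11.1%, median 0.06). Herpud1, of the degradation route there, went from 67.2, 64.7, 65.3 and 74.6 to 113, 118, 127 and 123 (1.77-fold, log2 difference 0.81 ± 0.20, adjusted p = 0.00561). Dnajb9, a co-chaperone, went from 18.5, 13.8, 13.3 and 14.8 to 24.4, 22.8, 26.3 and 40.5 (1.89-fold, log2 difference 0.85 ± 0.22, adjusted p = 0.00994). Without ZT12 replicate 4 Dnajb9 was not called (0.0924). The integrated stress response gave 2 falls of 14 (14.3%, against 4.28% of all genes and 846 of 13734 genes of at least 1 scaled count, median −0.08). Both were in genes downstream of ATF4. Trib3 went from 15.7, 9.95, 13.2 and 16.2 to 3.13, 6.45, 7.56 and 2.93 (2.75-fold lower, log2 difference −1.36 ± 0.27, adjusted p = 0.000489). Atf5 went from 82.3, 124, 57.5 and 90.6 to 60.9, 32.4, 35.6 and 23.1 (2.33-fold lower, log2 difference −1.23 ± 0.21, adjusted p = 4.81e-05). Trib3 had separate groups and Atf5 overlapped. Atf4 itself measured 10.8 ± 0.664 and 9.84 ± 1.84 (adjusted p = 0.743). Neither fall was called on the 8 libraries alone (0.0741 and 0.123).

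Ribosome biogenesis gave 6 rises and 1 fall of 20 (median 0.25). Polr1a, the large subunit of RNA polymerase I, measured 29.8, 25.4, 25.2 and 27.4 scaled counts at ZT8 and 42.9, 35.2, 39.1 and 41.7 at ZT12 (1.47-fold, log2 difference 0.54 ± 0.10, adjusted p = 0.000415). Rrn3, its initiation factor, measured 37.5, 34.0, 31.8 and 34.5 scaled counts at ZT8 and 39.7, 44.0, 62.7 and 56.4 at ZT12 (1.47-fold, log2 difference 0.52 ± 0.11, adjusted p = 0.00123). Ubtf, the upstream binding factor of the same promoter, went down from 16.4, 17.7, 16.5 and 16 to 14, 14.6, 9.74 and 11.6 (1.33-fold lower, log2 difference −0.40 ± 0.09, adjusted p = 0.00145), so that members of 1 polymerase machinery moved in opposite directions. Nop58, a core protein of small nucleolar RNPs, went from 3.82, 3.44, 3.36 and 3.43 to 6.57, 5.85, 5.14 and 6.01 (1.68-fold, log2 difference 0.61 ± 0.16, adjusted p = 0.00819). On the 8 libraries alone Rrn3 (0.133) and Ubtf (0.157) were not called, and Ubtf was also lost with the values as deposited (0.0642). Splicing factors had 1 rise of 17 (5.88%, near the 3.77% of all genes, median 0.15). It was Srsf4 at log2 0.34, adjusted p = 0.0287, which was lost without any of 6 libraries (adjusted p up to 0.129). Of the exon length of Srsf4, 43.0% is overlapped on the opposite strand, so its level is uncertain.

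The proteasome gave 3 falls and no rise of 15 (median −0.19, 3 of 15 log2 differences positive), all in subunits of the 19S cap. Psmd11 measured 87.7, 100.3, 86.2 and 94.7 scaled counts at ZT8 and 71.4, 63.9, 69.2 and 70.6 at ZT12 (1.34-fold lower, log2 difference −0.42 ± 0.11, adjusted p = 0.0145). Psmd14 measured 7.76, 9.09, 8.46 and 6.79 scaled counts at ZT8 and 6.71, 6.47, 5.57 and 6.71 at ZT12 (1.26-fold lower, log2 difference −0.29 ± 0.08, adjusted p = 0.0218). Psmd3 measured 48.5, 54.8, 49.8 and 48.9 scaled counts at ZT8 and 42.5, 45.2, 36.3 and 31.7 at ZT12 (1.30-fold lower, log2 difference −0.38 ± 0.12, adjusted p = 0.0451). The groups did not overlap for any of the 3. The 6 subunits of the 20S core in the list had log2 differences of 0.00 (Psma1), 0.01 (Psma3), −0.01 (Psma5), 0.01 (Psmb1), −0.10 (Psmb3) and −0.19 (Psmb5), none called. The 3 calls were frail: Psmd11 was lost without ZT8 replicate 2 (adjusted p = 0.0585), Psmd14 without any of 3 libraries (up to 0.117) and Psmd3 without any of 6 (up to 0.247). With the values as deposited all 3 were lost. Autophagy had 1 rise and 1 fall of 20 (5% each way, near the 3.77% and 4.28% of all genes, median −0.01). Sqstm1, the cargo receptor p62, fell from 196 ± 23.4 to 133 ± 9.56 (1.47-fold lower, log2 difference −0.55 ± 0.08, adjusted p = 2.73e-06). Its call was lost with the values as deposited (adjusted p = 0.067), and 17.3% of its exon length is overlapped on the opposite strand, where Mrnip lies. Bnip3l was lost without any of 3 libraries (log2 0.30, adjusted p = 0.0167, up to 0.149 without 1 library).

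Cell cycle genes gave 1 rise and 4 falls of 16 (median −0.43). Ccne1, the cyclin of the G1/S step, rose at low level from 0.545, 0.670, 0.667 and 0.752 to 1.14, 1.30, 1.73 and 1.63 (2.20-fold, log2 difference 0.56 ± 0.09, adjusted p = 5.61e-05). The 4 falls were in genes of S phase and mitosis, and none was called on the 8 libraries alone. With the values as deposited none of the 5 was called, Ccne1 included (adjusted p = 0.0998). The kinase gene Plk1 measured 4.42, 0.757, 0.477 and 2.08 scaled counts at ZT8 and 0.314, 0.722, 0.355 and 0.323 at ZT12 (log2 difference −0.85 ± 0.21, adjusted p = 0.00605). The cyclin gene Ccnb1 measured 1.75, 0.239, 0.289 and 1.14 scaled counts at ZT8 and 0.113, 0.487, 0.123 and 0.209 at ZT12 (log2 difference −0.52 ± 0.14, adjusted p = 0.0111) and Ccna2 2.79, 0.421, 0.361 and 1.5 scaled counts at ZT8 and 0.363, 0.523, 0.498 and 0.312 at ZT12 (log2 difference −0.54 ± 0.18, adjusted p = 0.0486). The kinase gene Aurka measured 5.06, 6.76, 6.68 and 7.34 scaled counts at ZT8 and 4.12, 4.07, 4.84 and 3.09 at ZT12 (log2 difference −0.57 ± 0.17, adjusted p = 0.0287). ZT8 replicate 1 was the high library for Plk1, Ccnb1 and Ccna2, whose groups overlapped. Without it the log2 difference was −0.50 for Plk1 (adjusted p = 0.091) and −0.30 for Ccnb1 (0.144), and Aurka was lost without any of 4 libraries (up to 0.151). Tubulins gave 3 falls of 10 (30%, against 4.28% of all genes, median −0.25). The first was Tubb2a, 8.20, 11.3, 6.54 and 6.64 scaled counts at ZT8 and 3.31, 3.75, 4.25 and 4.43 at ZT12 (2.08-fold lower, log2 difference −0.87 ± 0.18, adjusted p = 0.000701), which the 8 libraries alone did not call (adjusted p = 0.056). Tubb4b (log2 −0.49, adjusted p = 0.026) was lost without any of 5 libraries (up to 0.171) and Tubb6 (log2 −0.58, adjusted p = 0.0157) without any of 4 (up to 0.128).

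The remaining lists had 2 calls or fewer. Iron handling had 1 rise and 1 fall of 13 (7.69% each way, against 3.77% and 4.28% of all genes, median −0.01). They were Tfrc, above, and Hfe2, which encodes the hepcidin regulator hemojuvelin and fell from 24.6, 24.9, 22.5 and 23.3 to 15.3, 12.3, 14.7 and 13.5 (1.71-fold lower, log2 difference −0.73 ± 0.11, adjusted p = 8.64e-06). Hamp, which encodes hepcidin, measured 856, 2152, 3104 and 1029.6 scaled counts at ZT8 and 1918, 3926, 2640.2 and 1826 at ZT12 (adjusted p = 0.376). The acute phase list had 2 rises of 18 (11.1%, against 3.77% of all genes, median −0.01). Il6ra, the interleukin-6 receptor, went from 27.4, 24, 22.6 and 30.5 to 65.2, 47.7, 47.2 and 54.5 (2.05-fold, log2 difference 1.01 ± 0.19, adjusted p = 0.000324). Steap4 (log2 0.34, adjusted p = 0.0271) was lost without any of 4 libraries (up to 0.18). Immediate early genes had 1 call of 19 (median 0.02), Ier3, which stayed under 0.4 scaled counts in every library (log2 0.15, adjusted p = 0.0484) and was lost without any of 7 libraries (up to 0.117). The growth hormone and IGF list (0 of 11, median 0.01) and the fasting hepatokines (0 of 10, median −0.10) had no gene called by limma. Nor had the cold-inducible genes (0 of 3, median −0.10) and a list of well-studied long non-coding RNAs (0 of 14, median 0.02). In the order given, 4, 1, 1 and 2 members had an unadjusted p under 0.05, as did 5139 of all 25393 genes. In these lists Igf1 measured 869 ± 95.0 and 1105 ± 95.8 (adjusted p = 0.19) and Ghr 436 ± 30.2 and 509 ± 67.6 (0.0757). The hepatokine gene Fetub measured 151 ± 12.9 and 144 ± 15.9 (0.814). Srsf5 measured 30.7 ± 0.901 and 28.5 ± 1.71 (0.754) and Rbm3 3.69 ± 0.256 and 4.62 ± 0.873 (0.338). Malat1 measured 424 ± 37.8 and 589 ± 124 (0.377) and Neat1 5.12 ± 1.79 and 8.22 ± 4.39 (0.704).

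**Figure D4:**
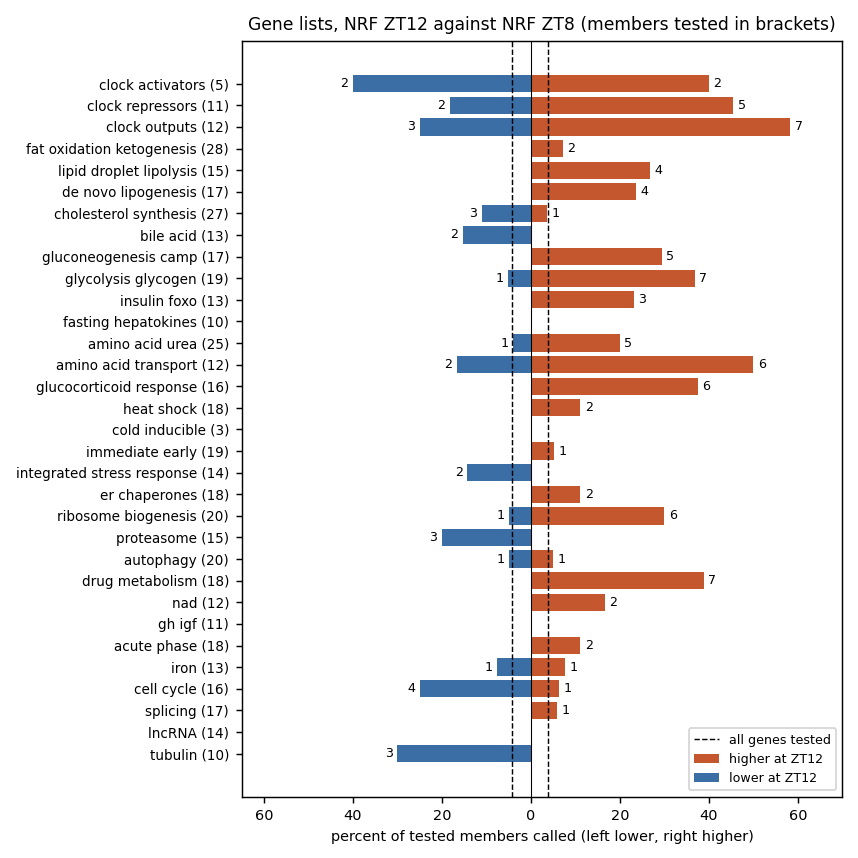
Percent of the tested members of each gene list that fell (bars to the left) or rose (bars to the right) between ZT8 and ZT12 under NRF, with the counts at the bar ends. Dashed lines mark the shares of all genes tested, 4.28% lower and 3.77% higher. Among the 13734 genes of at least 1 scaled count 846 fell and 842 rose, larger shares than those of all genes. Clock outputs (7 of 12 higher) and amino acid transport (6 of 12) reach farthest to the right. The lists were chosen with earlier results of these data known, so their order is not a result.

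Set against the other NRF times, the rises and falls had different courses. Of the 958 genes that rose, 529 (55.2%) had their highest mean of the 7 times at ZT12 and 305 at ZT16, 4 h into the dark. Of the 1088 that fell, 442 (40.6%) had their lowest mean at ZT12 and 475 at ZT16. Over all 13734 genes of at least 1 scaled count, 18.2% had their highest and 14.7% their lowest mean at ZT12; the calls and these means share the ZT8 and ZT12 libraries, so the shares are a description. Among the largest rises Mfsd2a (128 ± 28.4 at ZT12, 68.9 ± 10.7 at ZT16) and Lpin1 (208 ± 27.9, 58.5 ± 19.2) had their highest means at ZT12, whereas Tsku (112 ± 28.5, 216 ± 21.7) and Thrsp (202 ± 85.3, 459 ± 143) were higher still at ZT16. Of the 12 largest falls 9 had their lowest mean at ZT12, among them Cldn1 (11.3 ± 1.38 at ZT12, 35.3 ± 8.26 at ZT16) and Ppp1r3c (3.77 ± 0.723, 15.6 ± 6.41). Nr1d1 had lower means still, 3.75 ± 1.96 at ZT16 and 0.557 ± 0.115 at ZT20. Arntl had its lowest mean, 1.38 ± 0.209, at ZT12 and 33.0 ± 6.26 at ZT16.

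The same 4 h of the fast fall at ZT20 to ZT24 under DRF, where food was given in the light, and the change there was set beside that of the night-fed mice. Under DRF 450 genes (1.77%) were called, 160 higher (0.63%) and 290 lower (1.14%), or 35.6% higher of those called against 46.2% with a length correction and 52.9% with the values as deposited. Of these calls 130 were shared, which is 6.35% of the night-fed and 28.9% of the day-fed calls, 113 in the same and 17 in the opposite direction. The difference between the changes, tested as an interaction in the same model, was called for 976 genes (3.84%), of which 587 (2.31%) were positive. They included 627 of the 2046 night-fed calls (30.6%), 386 higher and 241 lower at ZT12. Taking DRF ZT0 in place of ZT24, the same clock time a day apart, gave 2807 day-fed and 2914 interaction calls, and 542 of the 627 were called there too with the same sign. The count of differences also rested on single libraries, with 429 without NRF ZT12 replicate 4, 465 without replicate 3 and 1778 without replicate 2, and 588 to 650 without DRF ZT24 replicate 1 or 2 or DRF ZT20 replicate 3 or 4. The day-fed count was 188 to 278 without DRF ZT20 replicate 1, 2 or 3 or DRF ZT24 replicate 2. The fasts compared end at different clock times, so that fasting and time of day cannot be told apart here.

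Genes that rose in night-fed mice more than in day-fed mice included Mfsd2a (day-fed log2 difference −0.02, difference of the changes 2.65 ± 0.46, adjusted p = 0.000701). Lpin1 (day-fed −0.23, difference 2.23 ± 0.42, adjusted p = 0.00156), Cry1 (day-fed −0.03, difference 1.53 ± 0.28, 0.00102) and Zbtb16 (day-fed 0.10, difference 2.16 ± 0.60, 0.0319) gave the same picture. Nr1d1, which fell in night-fed mice, had a day-fed log2 difference of −0.11 (difference −2.0 ± 0.44, adjusted p = 0.00606), and Ppp1r3c of −0.54 (difference −1.26 ± 0.26, 0.00388). Tsku was the gene of this group whose difference was least firm (2.17 ± 0.62, adjusted p = 0.0391 with ZT24 and 0.149 with ZT0).

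The 6 night-fed calls with the lowest p of the difference were those of Timp3, Slc25a32, Tnfrsf1b, Lasp1, Maco1 and Cln8. Timp3, a tissue inhibitor of metalloproteinases, measured 16.9, 16.6, 17.8 and 16.3 scaled counts at ZT8 and 26.1, 30.2, 33.5 and 32.5 at ZT12 (log2 0.81, adjusted p = 6.33e-10) and moved the opposite way in day-fed liver (log2 −0.44 ± 0.08, adjusted p = 0.00105). Its level is uncertain, with 21.3% of its exon length overlapped on the opposite strand. Slc25a32, the mitochondrial folate carrier, measured 17.7, 17.2, 17.1 and 16.4 scaled counts at ZT8 and 26.4, 29.9, 40.2 and 38.9 at ZT12 (day-fed log2 −0.14 ± 0.08, difference 1.07 ± 0.11, adjusted p = 3.66e-08). Tnfrsf1b, the tumour necrosis factor receptor 2, measured 48.4, 45.1, 45.9 and 51.1 scaled counts at ZT8 and 87.9, 93.5, 93.2 and 87.5 at ZT12 (day-fed 0.10 ± 0.07, difference 0.82 ± 0.10, 3.6e-06). In all 3 the ZT8 libraries lay within a few scaled counts of each other and under every ZT12 library. Lasp1, an actin-binding LIM and SH3 protein, fell from 68.8, 68.6, 58.7 and 69.5 to 39.1, 36.4, 32.0 and 33.7 (day-fed −0.02 ± 0.08, difference −0.87 ± 0.12, 1.08e-05). Maco1, macoilin, rose from 46.7, 48.5, 54.4 and 47.5 to 80.7, 88.5, 95.5 and 105 (day-fed 0.13 ± 0.07, difference 0.76 ± 0.10, 1.08e-05). Cln8, an endoplasmic reticulum protein of lysosome biogenesis, rose from 10.1, 8.27, 8.08 and 8.87 to 11.1, 14.5, 17.5 and 16.5 (day-fed −0.31 ± 0.09, difference 0.99 ± 0.13, 9.2e-06). The ZT12 libraries of Cln8 and Slc25a32 spread more widely than those at ZT8, and the 8 libraries alone did not call Cln8 (adjusted p = 0.0674).

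Clock genes divided in this comparison. Per1, Per2 and Per3 had day-fed log2 differences of 0.63, 1.16 and 1.35 beside 1.20, 1.5 and 1.19 in night-fed liver, and adjusted p of the difference of 0.481, 0.727 and 0.861. A difference that is not called does not show equal changes. The day-fed change of Per1 was not called by limma with DRF ZT24 (adjusted p = 0.252), and was with DRF ZT0 (log2 1.72, adjusted p = 2.15e-05). Por (0.81 ± 0.15, adjusted p = 0.00127), Bhlhe41 (−0.75 ± 0.14, 0.00188) and Lonrf3 (1.29 ± 0.22, 0.000435) differed in their change, as did Nr1d1 and Cry1 above. Bhlhe41 was low in day-fed liver, with means of 0.412 scaled counts at DRF ZT20 and 0.363 at ZT24. For Arntl the difference was −0.69 ± 0.27 (adjusted p = 0.141) and for Dbp −0.82 ± 0.30 (0.113). Nampt rose under both regimens, by 1.4 and 0.50, and more in night-fed liver (difference 0.90 ± 0.15, adjusted p = 0.000247).

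**Figure D5:**
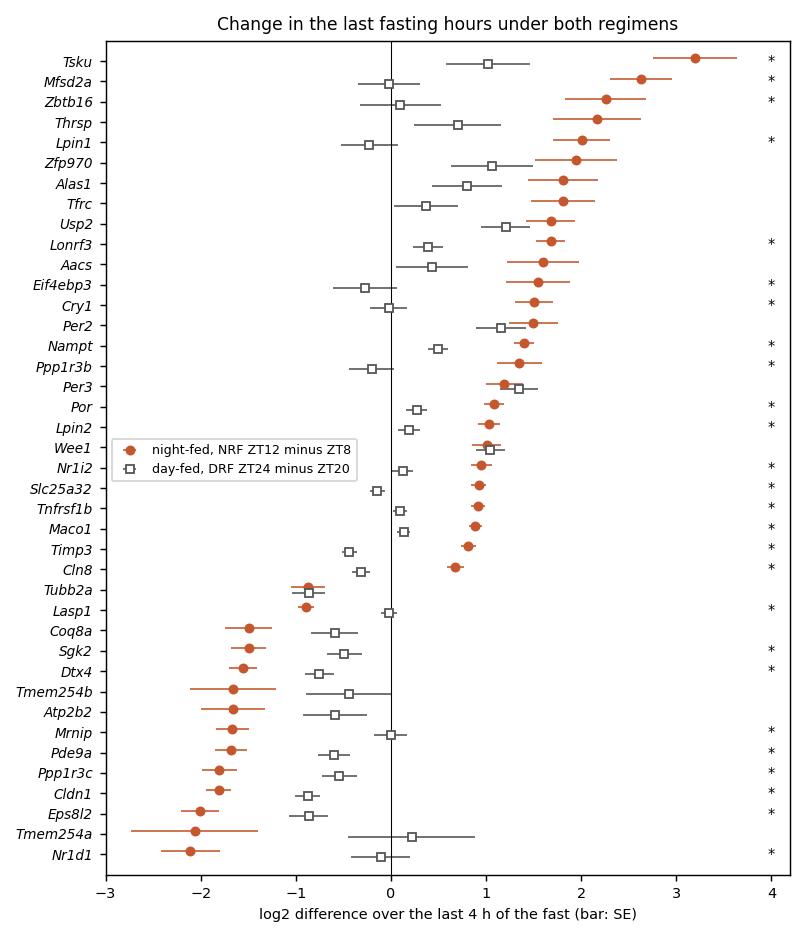
Log2 differences ± SE over the last 4 h of the fast in night-fed (filled orange, NRF ZT12 minus ZT8) and day-fed liver (open squares, DRF ZT24 minus ZT20). An asterisk marks genes whose difference between the changes had an adjusted p under 0.05. Lpin1 and Mfsd2a lie near 2 or above in night-fed and near 0 in day-fed liver, and Per3 lies close in both.

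Among 3521 long non-coding RNA genes 185 were called (5.25%), 47 higher and 138 lower, against 1718 of 15089 protein-coding genes (11.4%). B230206H07Rik fell from 5.90, 6.11, 4.32 and 6.80 to 1.74, 1.11, 1.57 and 0.696 (log2 difference −1.58 ± 0.18, adjusted p = 3.3e-08), and 46.0% of its exon length is overlapped on the opposite strand, where Eps8l2 lies, a gene that fell as well. 4933421A08Rik, which starts next to Mfsd2a on the other strand, rose from 0.387, 0.655, 0.985 and 0.759 to 2.44, 3.44, 5.60 and 3.08 (log2 difference 1.42 ± 0.20, adjusted p = 3.19e-06), as Mfsd2a did. Gm48877 fell from 0.538, 0.584, 0.515 and 0.301 to 0.0170, 0.0199, 0.0131 and 0.0133 (log2 difference −0.54 ± 0.08, adjusted p = 4.94e-06). All 3 were at low level with separate groups. Of 1131 circRNAs tested 1 was called (0.0884%), and 127 had an unadjusted p under 0.05. That circRNA, novel_circ_0011461, had 10, 6, 8 and 11 junction reads at ZT8 and 0, 13, 0 and 0 at ZT12 (log2 difference −6.81 ± 1.05, adjusted p = 3.73e-05). ZT12 replicate 2 was thus not low as the rest of its group was. Read numbers here are not adjusted for library depth, whereas limma was fitted to the adjusted values. The size of this difference depends on the pseudocount, as 3 of the 4 ZT12 libraries were at 0, and with a pseudocount of 100 units it was not called. Next in p were mmu_circ_0000281 (96, 77, 40 and 57 against 37, 86, 9 and 10 reads, adjusted p = 0.122) and novel_circ_0006134 (91, 87, 41 and 72 against 60, 40, 27 and 21, adjusted p = 0.122). Without ZT12 replicate 2 there were 27 calls, without ZT12 replicate 1 there were 10 and without ZT8 replicate 2 there were 2. The libraries held 7421 to 18879 junction reads each, which limits the circRNAs to changes of many reads.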

How the data were processed

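By the extract protocol, liver RNA was depleted of ribosomal RNA and sequenced strand-specifically in paired ends, whereas the molecule label reads polyA RNA, which bears on the circRNA and non-coding RNA values; the submitters' processing notes name CASAVA 1.8, featureCounts 1.5.0-p3 and the builds mm10 and GRCm38.p6. Which aligner was used, and whether reads were counted by strand, is not given in the sources used here. The gene values, which the authors named TPM, are used as a score: as deposited, each value times exon length is a library factor times ln(1 + scaled count), so that library factors (56796 ± 557 at ZT8, 58218 ± 514 at ZT12, exact permutation p = 0.0286, the smallest possible) could move levels. The authors deposited circRNA values on a log2 scale of junction reads. Transcript values were not used. Scaled counts were recovered with lengths from the GRCm38 annotation or, for 2202 genes, a searched length, and 25393 of 25415 genes could be used. Among held-out values up to 300000 recovered counts, 98.8% to 100% per range were whole within 0.05, where chance gives 10%. For circRNAs, 28 values of ZT8 replicate 4 that stood apart by 1 factor were set missing.

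Python 3.11.15 (numpy 2.4.6, pandas 2.3.3, scipy 1.17.1) and R 4.3.3 with limma 3.58.1 were used. limma with a variance trend was fitted to log2(scaled count + 1) over 56 libraries and 14 groups (42 residual degrees of freedom), two-sided, with Benjamini-Hochberg adjustment over all genes, and a fold change of a low gene is understated on this scale. A low-value filter removed 0 genes. p-values of limma rest on the spread between animals within groups, pooled over the 14 groups, and not on that of ZT8 and ZT12 alone. The steps were tested on simulated data. Named were the 12 largest changes in each direction among genes called without overlap, with a mean of at least 5 and an assigned name, up to 4 called members of each of 32 lists, the 6 lowest interaction p, 3 long non-coding RNAs and 3 circRNAs. Other members are given with values, and were chosen after their values were seen. A few named genes are not reported here. The members and lists were chosen with earlier results of these data known. Alternatives were other values, scalings, pseudocounts, filters, samples, a replicate block and leaving out single libraries.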

Additional observations from a re-analysis of the deposited data

Results flagged for a closer look

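The lists below name single values that stood out and give no explanation of them. In 12 of the 234 gene-by-time groups of 4 libraries that were examined, 1 library lay far from the other 3 by Dixon's criterion (the gap to the nearest other library against the range of the group), where chance alone gives about 1 group in 20. At ZT8 the libraries apart were replicate 3 for Eps8l2 (17.2 scaled counts), Ppp1r3b (10.4), Fetub (131.8), Slc43a1 (9.00) and Lasp1 (58.7), replicate 2 for Fads2 (531.8), replicate 4 for Tsc22d3 (140.6) and replicate 1 for Ppp1r3g (0.516) and Nop58 (3.82). At ZT12 they were replicate 3 for Zfp970 (11.6), replicate 1 for Sik1 (15.4) and replicate 2 for Plk1 (0.722).

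For 45 of the genes named, the 4 h change of night-fed liver differed from that of day-fed liver (limma interaction, adjusted p under 0.05). The difference is given on the log2 scale as night-fed minus day-fed. It was at least 1.2 for Mfsd2a (2.65), Lpin1 (2.23), Ppp1r3g (2.23), Tsku (2.17), Zbtb16 (2.16), Eif4ebp3 (1.82), Ppp1r3b (1.55), Cry1 (1.53), 4933421A08Rik (1.47), Slc37a4 (1.37), Lonrf3 (1.29), Timp3 (1.25) and Tat (1.25). Next came Gpt2 (1.08), Slc25a32 (1.07), Slc38a2 (0.998), Cln8 (0.99), Plin4 (0.91), Nampt (0.90), Lpin2 (0.84), Nr1i2 (0.83), Tnfrsf1b (0.82) and Por (0.81). Smaller positive differences were those of Maco1 (0.76), Rrn3 (0.67), Polr1a (0.66), Foxo1 (0.64), Arg1 (0.64), Ccne1 (0.62), Fads2 (0.60), Cyp3a13 (0.54), Steap4 (0.51) and Rora (0.36). The difference was negative for Nr1d1 (−2.0), Mrnip (−1.67), Ppp1r3c (−1.26), Hmgcs1 (−1.24), Eps8l2 (−1.14), Pde9a (−1.08), Sgk2 (−1.003), Cldn1 (−0.94), Lasp1 (−0.87), Dtx4 (−0.80), Bhlhe41 (−0.75) and Gm48877 (−0.43). These differences rest on the choice of DRF ZT24, a library set whose exchange for DRF ZT0 raised the count over all genes from 976 to 2914. With DRF ZT0, 39 of the 45 were called in the same direction and 6 were not: Tsku (log2 1.41, adjusted p = 0.149), Cldn1 (−0.33, 0.307), Tat (0.59, 0.312), 4933421A08Rik (0.66, 0.137), Plin4 (0.63, 0.0903) and Fads2 (0.46, 0.0596), by limma.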

How the results depend on the processing

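The count of 2046 genes called became 476 in the fit on the 8 libraries alone, of which 423 were among the 2046 with the same sign, and 1220 (1179 among them) on the 28 NRF libraries. Leaving out single libraries gave 1178 (without ZT12 replicate 4) to 2696 (without ZT12 replicate 2). Other values, scalings, pseudocounts and filters gave 1700 to 2115. The count of 976 differences between night-fed and day-fed change became 407 with the values as deposited (377 of them among the 976 with the same sign), 159 (143) with the 16 libraries of the 4 groups alone and 2914 (786) with DRF ZT0 in place of ZT24. Leaving out single libraries gave 429 to 1778. The 450 day-fed calls became 104 with the values as deposited, 2807 with DRF ZT0, and 188 to 517 without single libraries, alternatives chosen after seeing the data. The 1 circRNA call became 0 with a pseudocount of 100 units (chosen after seeing the data) and 1 to 27 without single libraries. The difference in library factor, 1422, stayed positive at 1223 to 1673 without single libraries, where 3 against 4 can give no exact permutation p under 0.0571. The difference in length index was 0.19, and 0.16 to 0.23 without single libraries. The cause of these shifts was not tested. The smaller fits differ both in the number of samples and in the groups that supply the spread.

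Same-numbered libraries at ZT8 and ZT12 correlated at r = 0.14, −0.01, 0.11 and −0.03 in their deviations from the group means, so the numbers were not taken as pairs. A replicate block gave 2044 calls (963 higher, 1081 lower), 1973 with a length correction as well, 953 differences between regimens and 1 circRNA, and not every library correlated best with its own number.

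Of the 117 genes the rule named, 109 were called. None of the 109 changed sign under any alternative run, 81 kept the call without each library in turn and 49 under every alternative. The 8 libraries alone ended 52 calls, the 28 NRF libraries 19 and the values as deposited 18, the last including Per1 (adjusted p = 0.0739) and Usp2 (adjusted p = 0.0596) by limma. Of 32 gene lists the median changed sign in 6 with the values as deposited, namely cholesterol synthesis (0.01), bile acids (0.03), cold-inducible genes (0.005), autophagy (0.03), acute phase (0.03) and iron (0.03). With a length correction it did so in 2, bile acids (0.009) and acute phase (0.04), and with median-of-ratios scaling in 3, autophagy (0.006), acute phase (0.009) and iron (0.009). Among 14 marker lists 3, 4 and 2 changed sign in the same order, the hepatocyte list each time (0.03, 0.04 and 0.005). Recovered counts give no read depth, so no counting interval is given.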

Other observations

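Some levels differed between the animals of 1 time more than between the times, in genes that were not called. Fabp1, the liver fatty acid-binding protein, measured 893, 1114, 435 and 738 scaled counts at ZT8 and 1186, 1434, 280.0 and 351 at ZT12 (adjusted p = 0.823), with ZT12 replicates 3 and 4 low as they were for Mt1 and Mt2. Igfals, the acid-labile subunit that carries IGF1 in blood, measured 97.2, 103, 22.6 and 99.0 scaled counts at ZT8 and 27.1, 75.0, 22.8 and 24.9 at ZT12 (adjusted p = 0.109). ZT8 replicate 3 alone lay at the ZT12 level for Igfals. Dusp1, an early response phosphatase, measured 48.9, 42.9, 107 and 80.3 scaled counts at ZT8 and 48.2, 220.3, 213 and 130.5 at ZT12 (adjusted p = 0.0802), with ZT12 replicate 1 apart from the other 3 libraries of its group.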
